A study of Homo sapiens with 4 samples.

Results

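Transcripts of 11 glycolytic enzymes (HK2, GPI, PFKP, ALDOA, TPI1, GAPDH, PGK1, PGAM1, ENO1, PKM and LDHA) were followed step by step in HGC-27, a cell line from a human gastric carcinoma, with and without the peptide GLUP. GLUP is a cyclic peptide that was built to link molecules of TEAD4, a DNA-binding transcription factor that pairs with YAP, and so to repress its target genes. The enzymes were a fixed list with 1 gene for each reaction from glucose to lactate, and each was found by its gene symbol among the 62443 genes of the expression table. Of the 11, 10 had a mean of at least 1 FPKM (fragments per kilobase of transcript and per mapped fragments of the library, a level scaled by gene length) over the libraries and were tested among 7588 genes. HK2 lay below that level. RNA was sequenced in 2 libraries from cells given GLUP at 10 μg/ml and in 2 control libraries, and values below name replicate 1 before replicate 2. Exposure is stated as 12 h in one place and as 48 h in another. The methods give the controls the peptide's stocking buffer (20 mM HEPES, 100 mM NaCl), while the sample labels record no treatment for them. The methods speak of biological replicates, and nothing further ties a library to a separate culture day. The cells of both groups grew in the same serum-containing medium and carried no engineered change that the labels name.

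Glycolysis splits glucose into pyruvate in the cytosol. In its first phase ATP is spent to phosphorylate the sugar and to cut it into triose phosphates, and in its second phase the trioses are oxidised and ATP and NADH are gained. Lactate dehydrogenase then turns pyruvate into lactate and returns NADH to NAD+. Tumour cells often keep this route active when oxygen is present, and HIF1 and MYC are well-known activators of its genes.

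The libraries were not equally alike. On the log2(FPKM + 1) scale the 2 GLUP libraries correlated at r = 0.986 over the genes tested and the 2 control libraries at r = 0.933. FPKM values summed to between 909735 and 949919, and mitochondrially encoded transcripts took between 27.2% and 29.7% of that sum. Sequencing depth is unknown, since whole reads could not be recovered from the low values, so the counting error of a level cannot be given. The median log2 difference between GLUP and control over all genes tested was -0.36, and the values below are read against it. The cells carried VIM, an intermediate filament of mesenchymal cells, at 293 to 387 FPKM. The other mesenchymal markers on the list were low. CDH2 was at or below 0.0508 FPKM, and FN1 was at 1.15 and 3.25 FPKM in control and 0.655 and 0.671 FPKM under GLUP. Epithelial markers were nearly absent, with the adhesion genes EPCAM and CDH1 at or below 0.124 FPKM. The keratins KRT8, KRT18 and KRT19 were low, and each was higher in both GLUP libraries than in both controls, KRT8 at 1.05 and 1.49 against 2.25 and 2.19 FPKM. The 5 epithelial markers summed to 2.97 and 3.70 FPKM in control and 5.87 and 5.18 FPKM under GLUP, and their part in the results was not tested. CD3E, HBB and CDH5, markers of T cells, red cells and endothelium, were listed at 0. The summed level of 4 fibroblast genes, led by LUM and DCN, was 105 and 104 FPKM in control and 97.5 and 104 FPKM under GLUP.

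Stretches of DNA just upstream of the transcription start were read for all 11 genes, because GLUP was designed against a DNA-binding factor and because several of the genes moved together. RefSeq (GRCh38.p14) gave 19 windows of 250 bases, since some genes have more than 1 start. The M-CAT core CATTCC, the motif of TEAD factors, was found on either strand in 15.8% of these windows, against 11.9% of 35116 windows in the table, and the genes were PFKP, PGAM1 and ENO1. ACGTG, a core that hypoxia-inducible factors bind, was in 57.9% of the windows against 18.5% of all windows. GCGTG, another form of that core, was in 36.8% against 32.2%. The E-box CACGTG contains ACGTG and so overlaps it, and was in 21.1% against 6.34%. The GC box GGGCGG was in 68.4% against 42.6%. Windows of one gene can overlap, and a match describes letters and not a bound site. The first pair of sequences below holds the M-CAT core in capitals, on either strand, and the second pair the hypoxia cores, also in capitals. For LDHA the window with more matches is shown. They were chosen because, on the deposited scale, ENO1 and PGAM1 had both GLUP libraries above both control libraries, whereas PGK1 and LDHA did not. The motifs did not divide the enzymes in that way. ACGTG was upstream of 8 genes, HK2, GPI, PFKP, ALDOA, TPI1, GAPDH, PGK1 and LDHA, and PFKP also held CATTCC. The ENO1 window also has 2 matches of GCGTG, left in small letters.
ENO1, chr1:8878687-8878936, minus strand: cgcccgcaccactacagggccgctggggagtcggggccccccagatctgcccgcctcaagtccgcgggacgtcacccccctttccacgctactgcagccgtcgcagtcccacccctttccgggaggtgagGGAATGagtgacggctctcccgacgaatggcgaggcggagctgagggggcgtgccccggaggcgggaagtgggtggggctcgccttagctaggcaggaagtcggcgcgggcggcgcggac
PGAM1, chr10:97427568-97427817, plus strand: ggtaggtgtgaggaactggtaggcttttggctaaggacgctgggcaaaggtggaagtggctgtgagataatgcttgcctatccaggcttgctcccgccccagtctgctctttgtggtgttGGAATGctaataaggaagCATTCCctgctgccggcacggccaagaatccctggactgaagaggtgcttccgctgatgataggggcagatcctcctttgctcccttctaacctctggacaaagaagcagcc
PGK1, chrX:78103998-78104247, plus strand: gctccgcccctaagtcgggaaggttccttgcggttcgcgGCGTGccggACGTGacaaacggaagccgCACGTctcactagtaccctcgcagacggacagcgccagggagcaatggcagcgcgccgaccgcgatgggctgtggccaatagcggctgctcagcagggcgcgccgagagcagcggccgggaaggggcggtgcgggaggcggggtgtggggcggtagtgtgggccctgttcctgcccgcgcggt
LDHA, chr11:18394313-18394562, plus strand: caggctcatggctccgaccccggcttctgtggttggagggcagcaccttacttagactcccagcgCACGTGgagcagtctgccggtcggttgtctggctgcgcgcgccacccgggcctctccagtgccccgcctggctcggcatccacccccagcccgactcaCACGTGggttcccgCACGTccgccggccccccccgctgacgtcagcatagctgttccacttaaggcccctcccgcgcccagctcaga

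Transcripts of 5 enzymes from the middle of the pathway were more than 2-fold higher with GLUP on the log2(FPKM + 1) scale. By that fold alone 6.83% of all genes tested were higher and 16.3% lower. The 5 enzymes were ALDOA, TPI1, GAPDH, PGAM1 and ENO1. The difference came mostly from control replicate 2, in which these transcripts were 5.07 to 10.7 times lower than in control replicate 1. GPI was slightly higher in both GLUP libraries, and PFKP, PGK1, PKM and LDHA had GLUP libraries at the level of control replicate 1. No enzyme had an adjusted p under 0.05 with limma and Benjamini-Hochberg adjustment over all genes tested. With a fold change over 2 added to that rule, 0.0132% of all genes were called as higher.

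**Figure D1:**
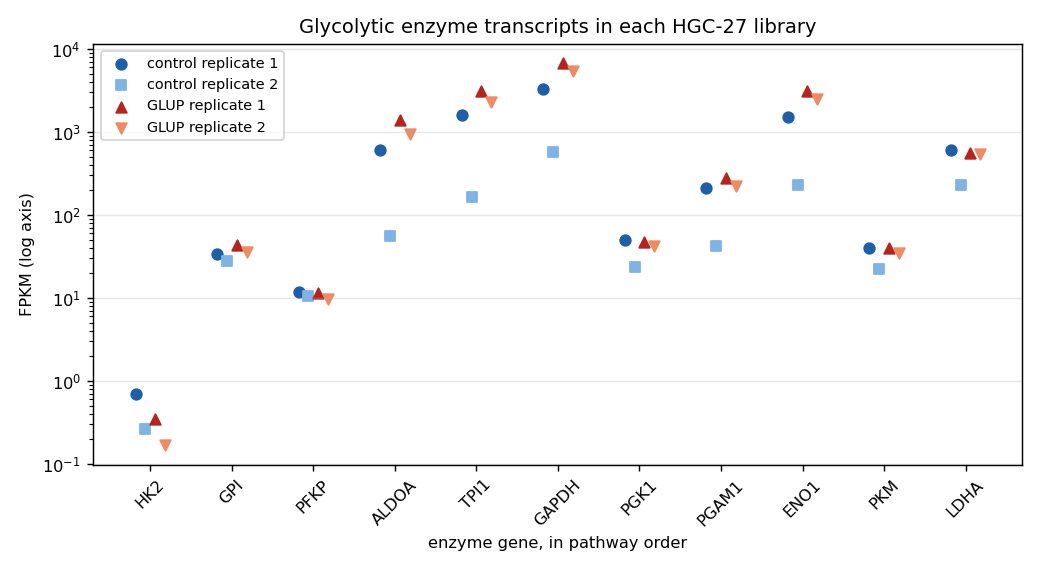
FPKM (log axis) of the 11 enzyme genes in pathway order, 1 point for each of the 2 control and 2 GLUP libraries. Control replicate 2 is the lowest point for every gene except HK2 and PFKP, and the gap is widest for ALDOA and TPI1.

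Gene positions in the following are those of the GENCODE annotation on GRCh37, the form that the row identifiers take. The submitters' processing notes name GRCh38.p10 instead, so the build behind the values is not settled, and these positions are not comparable with those of the sequences above. Levels are in FPKM, and differences are in log2(FPKM + 1) with the standard error (SE) of the fit.

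HK2 (ENSG00000159399, chr2:75061254-75120486, plus strand) encodes hexokinase 2, which traps glucose in the cell as glucose 6-phosphate. Its level was 0.696 and 0.264 FPKM in control replicates 1 and 2, and 0.347 and 0.166 FPKM in GLUP replicates 1 and 2. The groups overlapped, and with so little signal the gene was described and not tested. The hexokinases HK1, HK2, HK3 and HKDC1 were faint together. They reached 1.65 and 0.674 FPKM in control and 0.955 and 0.965 FPKM under GLUP. HK1, the widely expressed form, was the largest part, from 53.0% of their sum in control replicate 1 to 82.8% in GLUP replicate 2.

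GPI (ENSG00000105220, chr19:34850385-34893318, plus strand) encodes the isomerase that turns glucose 6-phosphate into fructose 6-phosphate. It was at 33.7 and 28.0 FPKM in control and 43.6 and 35.6 FPKM under GLUP. Both GLUP libraries lay above both controls, by a narrow margin. The difference was 0.35 (SE 0.33, limma with Benjamini-Hochberg adjustment, adjusted p = 0.471).

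PFKP (ENSG00000067057, chr10:3108525-3179910, plus strand) is the platelet form of phosphofructokinase, which commits the sugar to glycolysis. It was at 11.8 and 10.6 FPKM in control and 11.6 and 9.75 FPKM under GLUP. The 4 values were interleaved, with a difference of -0.07 (SE 0.30, limma with Benjamini-Hochberg adjustment, adjusted p = 0.882). This sign turned with the scaling, to 0.27 after centring of the libraries on their medians. PFKM, the muscle form, was nearly as abundant, at 10.6 and 7.97 FPKM in control and 9.13 and 7.95 FPKM under GLUP. PFKL, the liver form, was a small part of the step and the one that differed most. It was listed at 0.577 and 0.0607 FPKM in control and 2.68 and 1.21 FPKM under GLUP, so both GLUP libraries lay above both controls. PFKL passed the filter on mean level only through the GLUP libraries, so its test is not read as support for a difference. Its difference was 1.14 (SE 0.35, limma, unadjusted p = 0.0176, Benjamini-Hochberg adjusted p = 0.111). With the GC trend removed its difference was 0.57 and it was not called. Its share of the step went from 2.51% and 0.326% to 11.5% and 6.40%.

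ALDOA (ENSG00000149925, chr16:30075485-30081778, plus strand) encodes aldolase A, which cuts fructose 1,6-bisphosphate into the triose phosphates. It was at 598 and 56.0 FPKM in control and 1401 and 947 FPKM under GLUP. Both GLUP libraries were above both controls, and control replicate 2 stood far below the other 3 libraries. The difference of 2.64 (SE 1.05) had an unadjusted p of 0.0473 and a Benjamini-Hochberg adjusted p of 0.154 in limma. Only 0.171% of the genes tested had a greater difference. Against control replicate 1 alone the GLUP mean was 1.96-fold higher, and against control replicate 2 alone 21.0-fold. ALDOA held over 98.6% of the aldolase step in every library, and ALDOC, the brain form, was at 0.786 to 4.10 FPKM.

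TPI1 (ENSG00000111669, chr12:6976283-6980112, plus strand) encodes triosephosphate isomerase, which interconverts the trioses so that all of the sugar can go on. It was at 1617 and 162 FPKM in control and 3104 and 2320 FPKM under GLUP. The order of the libraries was that of ALDOA. The difference was 2.38 (SE 1.02, limma, unadjusted p = 0.0588, Benjamini-Hochberg adjusted p = 0.170), with the GLUP mean 1.68-fold over control replicate 1 and 16.7-fold over control replicate 2.

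GAPDH (ENSG00000111640, chr12:6643678-6647540, plus strand) opens the second phase, as it oxidises glyceraldehyde 3-phosphate and makes NADH. It was the most abundant of the 11 transcripts in every library, at 3318 and 569 FPKM in control and 6762 and 5405 FPKM under GLUP. GAPDH is a common reference gene for expression assays, and here it differed 5.83-fold between the 2 controls. Its difference was 2.14 (SE 0.79, limma, unadjusted p = 0.0367, Benjamini-Hochberg adjusted p = 0.138). The GLUP mean was 1.83-fold over control replicate 1 and 10.7-fold over control replicate 2.

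PGK1 (ENSG00000102144, chrX:77166236-77384792, plus strand) encodes phosphoglycerate kinase, the first step that yields ATP. It was at 49.5 and 23.3 FPKM in control and 46.5 and 41.8 FPKM under GLUP. Control replicate 1 was the highest of the 4 and control replicate 2 the lowest, so the groups overlapped. The difference was 0.36 (SE 0.44, limma with Benjamini-Hochberg adjustment, adjusted p = 0.574). Without control replicate 2 its sign turned, to -0.16.

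PGAM1 (ENSG00000171314, chr10:99185948-99193201, plus strand) encodes phosphoglycerate mutase, which moves the phosphate group before the enolase step. It was at 214 and 42.1 FPKM in control and 281 and 221 FPKM under GLUP. GLUP replicate 2 was barely above control replicate 1, while control replicate 2 was far below all others. The difference was 1.38 (SE 0.75, limma with Benjamini-Hochberg adjustment, adjusted p = 0.246), made up of 0.22 against control replicate 1 and 2.54 against control replicate 2.

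ENO1 (ENSG00000074800, chr1:8921059-8939249, minus strand) encodes enolase 1, which makes phosphoenolpyruvate. It was at 1521 and 230 FPKM in control and 3092 and 2521 FPKM under GLUP. Both GLUP libraries were above both controls. The difference was 2.24 (SE 0.85, limma, unadjusted p = 0.0398, Benjamini-Hochberg adjusted p = 0.142), and the GLUP mean was 1.85-fold over control replicate 1 and 12.2-fold over control replicate 2. The other enolases were minor, with ENO2, the neuronal form, at 1.495 to 2.16 FPKM and ENO3, the muscle form, at 1.54 to 3.49 FPKM.

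PKM (ENSG00000067225, chr15:72491370-72524160, minus strand) encodes the muscle-type pyruvate kinase, which releases pyruvate and ATP. It was at 39.6 and 22.5 FPKM in control and 39.5 and 35.1 FPKM under GLUP. Control replicate 1 and GLUP replicate 1 had almost the same level. The difference was 0.31 (SE 0.39, limma with Benjamini-Hochberg adjustment, adjusted p = 0.588), and it was -0.09 without control replicate 2. The table gives 1 value per gene, so its splice forms M1 and M2 cannot be told apart.

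LDHA (ENSG00000134333, chr11:18416107-18429972, plus strand) encodes the A subunit of lactate dehydrogenase. It was at 601 and 232 FPKM in control and 559 and 541 FPKM under GLUP. Here too control replicate 2 alone was low, and control replicate 1 was the highest of the 4. The difference was 0.56 (SE 0.50, limma with Benjamini-Hochberg adjustment, adjusted p = 0.445), and it was -0.13 without control replicate 2. LDHB, the B subunit, was the larger part of this step at 3361 and 2755 FPKM in control and 3043 and 2876 FPKM under GLUP. LDHA was 15.2% of the step in control replicate 1, 7.75% in control replicate 2, and 15.5% and 15.8% in the GLUP libraries.

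**Figure D2:**
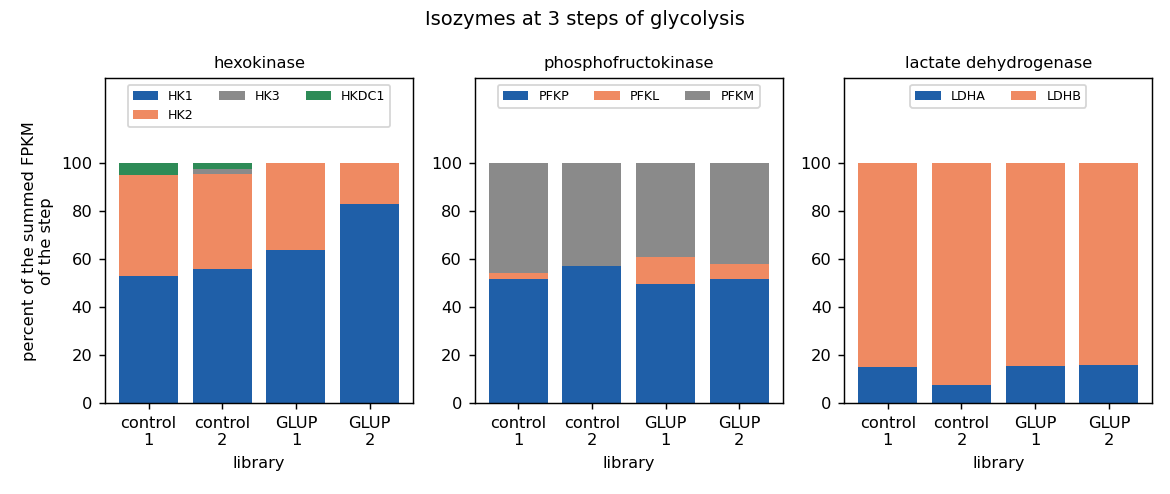
Percent of the summed FPKM of a step held by each isozyme gene in the 2 control and 2 GLUP libraries, for hexokinase, phosphofructokinase and lactate dehydrogenase. PFKL has its larger bars in both GLUP libraries, at 11.5% and 6.40% of its step, and LDHA has its smallest in control replicate 2, at 7.75%.

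Set side by side, the enzymes differed in size of response. GPI, ALDOA, TPI1, GAPDH, PGAM1 and ENO1 had the same order of libraries, with GLUP replicate 1 highest and control replicate 2 lowest, while PFKP, PGK1, PKM and LDHA had control replicate 1 highest. By fold change over 2 and unadjusted p under 0.05 (limma), 3 of the 10 tested were called as higher with GLUP (ALDOA, GAPDH and ENO1) and 0 as lower, against 4.67% and 14.5% of all genes tested. After centring of the libraries on their medians it was 4 of 10, TPI1 being added, against 10.5% of all genes as higher and 5.64% as lower. By fold change over 2 alone it was 5 of 10 as higher against 6.83%, and 0 as lower against 16.3%. Both GLUP libraries lay above both control libraries for 6 of 10 against 17.5% of all genes, and below both for 0 of 10 against 49.7%. A difference above 0 was seen in 9 of 10, all but PFKP, against 33.3%. The median over the 10 was 0.97, beside -0.36 over all genes tested. In RNA from whole cultures, a change in the share of cells that make a transcript and a change in RNA per cell cannot be told apart.

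With each control replicate alone the picture split. Against control replicate 1, 0 of 10 enzymes were more than 2-fold higher in the GLUP mean (2.31% of all genes tested) and 6 of 10 had a difference above 0 (27.8%). The median difference was 0.22 over the enzymes and -0.34 over all genes. Against control replicate 2, 6 of 10 were more than 2-fold higher (13%), LDHA being the addition to the 5 above, and 10 of 10 had a difference above 0 (37.5%). The median difference was then 1.89 over the enzymes and -0.34 over all genes. These values are given as differences, and fits that leave out a control follow.

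The controls differed from each other more than the GLUP libraries did. Control replicate 2 was more than 2-fold below control replicate 1 for 7 of 10 enzymes, against 12% of all genes tested, and more than 2-fold above it for 0 of 10, against 7.1%. It was the lowest of the 4 libraries for 9 of 10, against 31.3%. The median difference of control replicate 2 from control replicate 1 was -1.84 over the enzymes and -0.07 over all genes. Between the GLUP libraries 0 of 10 enzymes differed more than 2-fold (1.63% of all genes), and the median difference was -0.29. The same 5 enzymes that were farthest above control with GLUP were farthest below control replicate 1 in control replicate 2, and both comparisons use control replicate 2. For ALDOA the difference between the controls was -3.39 and for TPI1 -3.31, and 0.119% and 0.132% of all genes tested were further below. When control replicate 1 was left out, 6 of 10 were called by adjusted p and fold change (limma, Benjamini-Hochberg, 12.9% of all genes), with the lone control assumed to vary as the GLUP libraries do. When control replicate 2 was left out it was 0 of 10 (1.82% of all genes), also by unadjusted p and fold change (2.17%). In that fit the differences of ALDOA, TPI1, GAPDH and ENO1 ran from 0.73 for TPI1 to 0.94 for ALDOA and did not reach 2-fold.

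**Figure D3:**
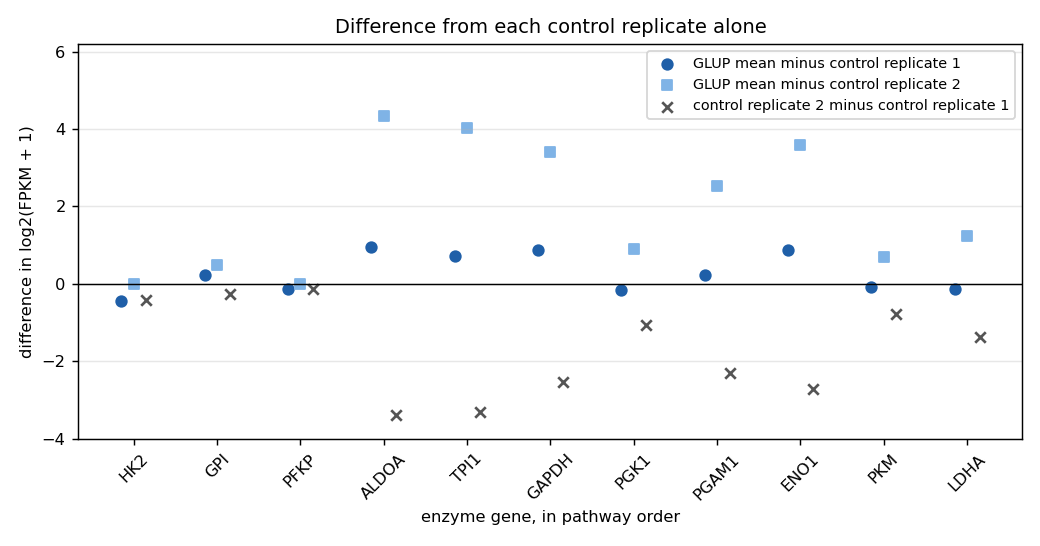
Difference in log2(FPKM + 1) for each enzyme: GLUP mean minus control replicate 1, GLUP mean minus control replicate 2, and control replicate 2 minus control replicate 1. Against control replicate 1 all points are below 1, while against control replicate 2 ALDOA reaches 4.34 and TPI1 4.04.

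The weight of the pathway in each library followed from its most abundant members. The 11 transcripts summed to 8005 and 1376 FPKM in control and to 15340 and 12077 FPKM under GLUP. This was 0.880% and 0.149% of all FPKM in the controls and 1.64% and 1.27% in the GLUP libraries. The means were 0.515% ± 0.517 for control and 1.46% ± 0.260 for GLUP (SD, n = 2 each, exact permutation p = 0.333, two-sided, the smallest that 2 against 2 libraries allow). GAPDH made up 41.4% to 44.8% of the sum, whereas LDHA made up 16.8% of it in control replicate 2 and between 3.64% and 7.51% elsewhere.

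Ratios between enzymes do not depend on how a library as a whole is scaled. ENO1 over GAPDH was 0.458 and 0.403 in the control libraries and 0.457 and 0.466 in the GLUP libraries, so these genes kept nearly the same proportion in all 4. PGK1 over PKM was also steady, at 1.25 and 1.04 against 1.18 and 1.19. GAPDH over PGK1, which are neighbouring steps, was 67.0 and 24.5 in the control libraries and 145 and 129 in the GLUP libraries. Both GLUP ratios were above both control ratios, and control replicate 1 was the nearer of the controls. GAPDH and PGK1 differ in GC content, at 57.6% and 42.8%. Their differences between GLUP and control were 2.14 and 0.36 as deposited. With the GC trend described below removed they were 1.76 and 0.97, so they lay closer together. The ratio itself was not computed on that scale. For LDHA over PKM the GLUP ratios did not both lie above both control ratios, at 15.2 and 10.3 against 14.1 and 15.4.

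Over the whole table the differences moved with base composition. Across 7570 genes tested with a known GC content of the longest transcript, Spearman's rho with GC content was 0.577 for GLUP minus control and -0.424 for control replicate 2 minus control replicate 1, a description across genes, which are not independent and share all 4 libraries. The median GC content was 46.5% over these genes and 53.2% over the 10 enzymes. LDHA (41.8%) and PGK1 (42.8%) were the GC-poor members and GAPDH (57.6%) and TPI1 (57.3%) the GC-rich ones. With the GC trend removed from each library, the difference was 2.47 for ALDOA, 2.19 for ENO1, 2.02 for TPI1, 1.76 for GAPDH, 1.33 for PGAM1, 1.21 for LDHA and 0.97 for PGK1, and the median over the 10 was 1.27. The 3 enzymes called by unadjusted p and fold change in limma were again ALDOA, GAPDH and ENO1, against 4.68% of all genes. The part of GC content in the differences of the enzymes was otherwise not tested.

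Some reads of these genes could belong to copies or neighbours. Of 102 pseudogenes named after the enzymes, 60 were listed at 0 in every library and 2 had a mean of at least 1 FPKM. TPI1P1 was at 10.3 and 1.68 FPKM in control and 27.4 and 23.8 FPKM under GLUP. GAPDHP1 was at 14.996 and 2.48 FPKM in control and 23.2 and 19.6 FPKM under GLUP. Both had the library order of their parent genes, and all pseudogenes together came to between 0.354% and 0.477% of the enzymes' own sum. Among 11 genes that overlap an enzyme, 3 had a mean of at least 1 FPKM. ENSG00000285043, a protein-coding gene on the strand of ALDOA, was at 45.6 and 1.66 FPKM in control and 58.4 and 32.8 FPKM under GLUP. PGAM4, a mutase gene that lies within PGK1 on the opposite strand, was at 3.76 and 1.91 FPKM in control and 5.61 and 5.92 FPKM under GLUP. ENSG00000269968, a long non-coding RNA opposite to GAPDH, had no signal in either control, where it was listed at 0, and was at 12.9 and 15.1 FPKM under GLUP (limma with Benjamini-Hochberg adjustment, adjusted p = 0.0481). It passed the filter on mean level through the GLUP libraries alone, so its test is not read as support for a difference. That adjusted p was 0.0968 in limma with the GC trend removed, and over the alternatives it ranged from 0.0023 to 0.333. Whether strand was used in counting is not given in the sources used here, so its reads and those of GAPDH cannot be told apart.

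Pathways next to glycolysis were read from lists in the same fit, with calls by the same fold change and unadjusted p in limma (4.67% of all genes as higher, 14.5% as lower). No gene of these lists had an adjusted p under 0.05. The calls of IDH3G and G6PC3 alone held with the GC trend removed, after centring on medians and without each library in turn. With the GC trend removed the other 8 fell short, with differences of 0.57 for PFKL, 0.80 for BSG, -0.64 for SLC2A3, -0.58 for DLD, -0.54 for PDHB, 0.97 for PGLS, -0.62 for RPE and -0.75 for SUCLA2. After centring SLC2A3 (-0.72) and PDHB (-0.70) fell short of 2-fold, and without control replicate 2 PFKL (0.86), BSG (0.98) and PGLS (0.79). So did SLC2A3 without control replicate 1 (-0.69) and without GLUP replicate 2 (-0.98), and PFKL without GLUP replicate 1 (0.77). By p-value the calls of DLD, RPE and SUCLA2, among others, were lost with 1 of the GLUP libraries left out. Of the 19 other isozymes of the same steps 7 were tested. PFKL alone was called, as higher, and it had passed the filter on mean level only through the GLUP libraries. Of 11 genes of glucose uptake and lactate transport 4 were tested. BSG, the chaperone of lactate transporters, was called as higher, at 39.2 and 23.4 FPKM in control and 80.2 and 76.2 FPKM under GLUP. SLC2A3, the glucose transporter GLUT3, was called as lower, at 14.7 and 8.24 FPKM in control and 5.12 and 4.39 FPKM under GLUP. SLC2A1, which encodes GLUT1, overlapped between groups at 2.63 and 6.03 against 2.07 and 2.81 FPKM.

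For entry of pyruvate into mitochondria 7 of 14 genes were tested. All 7 had a difference below 0, as did 66.7% of all genes tested, with a median of -0.54 beside -0.36 over all genes. Against control replicate 2 alone the list median was -0.22, beside -0.34 over all genes. In 6 of 7, both GLUP libraries lay below both controls, against 49.7% of all genes. DLD, the E3 subunit of pyruvate dehydrogenase, was called as lower, at 13.7 and 15.8 FPKM in control and 4.67 and 5.61 FPKM under GLUP. PDHB, an E1 subunit, was also called as lower, at 48.3 and 49.6 against 23.0 and 23.4 FPKM. In both genes the 2 controls were close, as they were for PFKP and GPI but not for the other tested enzymes of glycolysis. MPC1, a subunit of the mitochondrial pyruvate carrier, was at 7.77 and 5.19 against 3.805 and 2.44 FPKM, a difference of -0.86 that did not reach 2-fold. With the GC trend removed DLD, PDHB and MPC1, 3 of the 7, stayed below 0, and the median was 0.03, so the shared direction of this list did not hold under that scaling.

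In the pentose phosphate pathway, which branches off at glucose 6-phosphate, 6 of 8 genes were tested. PGLS, the lactonase, was called as higher (22.1 and 7.78 against 40.6 and 37.6 FPKM). RPE, an epimerase of the non-oxidative arm, was called as lower (12.3 and 14.96 against 5.13 and 3.64 FPKM). TKT, which returns carbon to glycolysis, was at 10.2 and 9.20 FPKM in control and 19.3 and 17.1 FPKM under GLUP, a difference of 0.84. In gluconeogenesis 2 of 8 were tested, and G6PC3, a widely expressed glucose 6-phosphatase, was called as higher (2.20 and 0.471 against 5.60 and 5.22 FPKM). PCK2, the mitochondrial form of phosphoenolpyruvate carboxykinase, overlapped between groups with a difference of 0.49, which was -0.03 with the GC trend removed. Of 5 genes that make or remove fructose 2,6-bisphosphate, TIGAR alone was tested, at 2.25 and 3.67 against 1.37 and 1.17 FPKM, a difference of -0.78 that was -0.10 with the GC trend removed.

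The tricarboxylic acid cycle had genes on both sides, with 10 of 12 tested. IDH3G, a subunit of isocitrate dehydrogenase, was called as higher (14.5 and 6.51 against 38.3 and 37.7 FPKM), and SUCLA2, a subunit of succinyl-CoA ligase, as lower (16.7 and 20.6 against 6.60 and 5.91 FPKM). MDH2, the mitochondrial malate dehydrogenase, had the library order of ALDOA and ENO1, at 255 and 37.5 FPKM in control and 388 and 315 FPKM under GLUP, and was not called.

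Hypoxia targets outside glycolysis and regulators of the pathway were not called in either direction. Of 14 hypoxia targets 7 were tested, with a median difference of -0.20. DDIT4, an inhibitor of mTORC1 signalling, was at 22.7 and 7.13 against 43.5 and 27.9 FPKM, EGLN3, an oxygen sensor, at 1.69 and 2.44 against 0.705 and 0.446 FPKM, and ERO1A, an oxidase of the endoplasmic reticulum, at 1.28 and 2.93 against 1.09 and 0.771 FPKM. Of 11 regulators 6 were tested, with a median of -0.14, which was 0.20 after centring and 0.11 with the GC trend removed. HIF1A, the oxygen-regulated subunit of HIF1, was at 7.05 and 6.36 FPKM in control and 3.88 and 3.01 FPKM under GLUP, a difference of -0.80 that became 0.03 with the GC trend removed. TXNRD1, a thioredoxin reductase, was at 14.7 and 46.9 against 16.5 and 11.5 FPKM, so control replicate 2 stood apart in it as the highest library. TXNIP, which restrains glucose uptake, had a difference of -0.20 that was 0.15 after centring on medians.

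**Figure D4:**
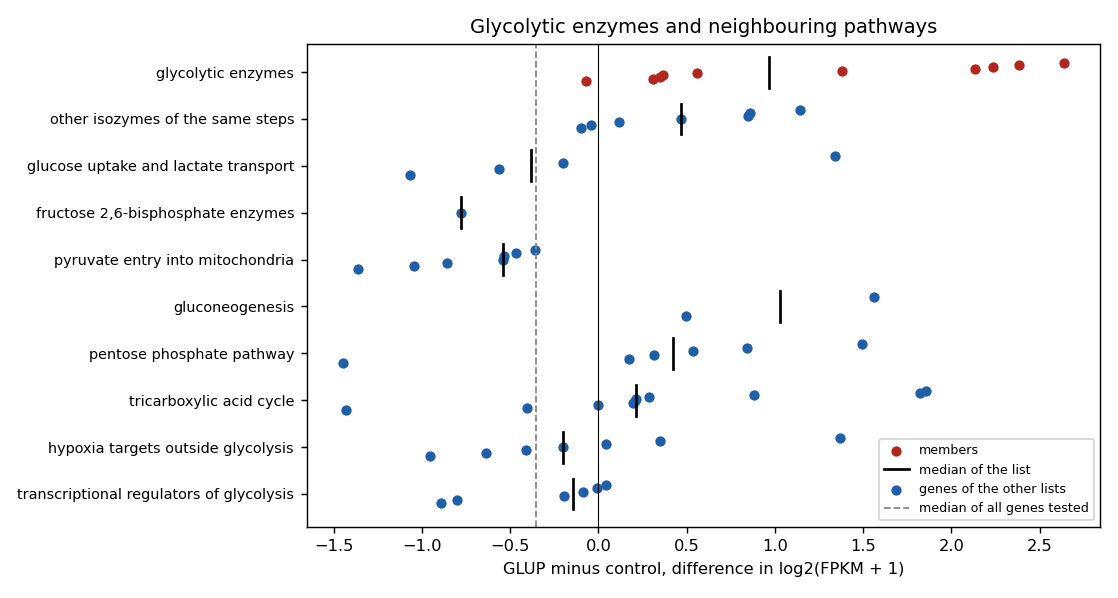
Difference between GLUP and control in log2(FPKM + 1) for the genes tested in each list, 1 point for each gene, with the list's median as a vertical bar and the median of all genes tested as a dashed line at -0.36. The enzymes have their median at 0.97, and the 7 genes of pyruvate entry all lie below 0, with a median of -0.54.

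The genes most like the enzymes over the 4 libraries were sought among 897 other genes that averaged 50 FPKM or more, by the Pearson correlation with the mean of the centred enzymes. SRSF7, a splicing factor, MDH2, ATP6V0B, a subunit of the vacuolar proton pump, CLIC1, an intracellular chloride channel protein, and UQCRC1, a subunit of respiratory complex III, came first, each with r = 0.999. With 4 libraries values of r over 0.9 were common, at 22.5% of the 897 genes, and the share near 0.999 was not counted. ATP6V0B was at 337 and 27.7 FPKM in control and 613 and 479 FPKM under GLUP. UQCRC1 was at 170 and 20.6 against 267 and 219 FPKM. SRSF7 had the same order within a narrower range, at 71.2 and 42.3 against 83.9 and 75.7 FPKM. Among the enzymes themselves PFKP followed that mean least, with r = 0.206.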

How the data were processed

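RNA-seq of 4 HGC-27 libraries (2 GLUP, 2 control, grouped by the treatment label) was used. The authors ran the analysis through the Majorbio cloud service, and 1 deposited FPKM value per gene and library was used. The submitters' processing notes name HISAT2, Cufflinks, RSEM and the build GRCh38.p10, without roles or versions. Whole reads could not be recovered from low FPKM, so depth is unknown.

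The deposited FPKM were used as given on the log2 scale with a pseudocount of 1, which understates the change of low genes. Of 62492 rows, 49 second pseudoautosomal copies were summed with their genes. Symbols were matched by Ensembl ID without version (99.55% of IDs). Genes averaging at least 1 FPKM were fitted with limma 3.58.1 in R 4.3.3 (GLUP minus control, mean-variance trend) and p-values were adjusted by Benjamini-Hochberg over all 7588. The fit was tested on simulated data. Calls needed p under 0.05 and a fold change over 2. P-values measure the spread between these libraries, which may be technical.

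Genes named were the 11 members, other isozymes, copies and overlapping genes that averaged 1 FPKM or more, up to 3 genes per list by absolute difference, and the 5 most alike genes. Cell type markers came from a separate list. One isozyme is not reported here, and sums of its step leave it out. Members, lists and tests were chosen with earlier results of these data known. Alternatives were a pseudocount of 0.1, all genes above 0, a mean of at least 5 FPKM, median centring, quantile normalization, a replicate block, removal of the GC trend (lowess, span 0.3), a fit without the mean-variance trend, a 1.5-fold threshold, and leaving out each library.

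Libraries with the same replicate number deviated from their group means with r = 0.126 over 7588 genes in 2 pairs, so the numbers were not taken as pairs.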

Additional observations from a re-analysis of the deposited data

How the results depend on the processing

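The count of enzymes called as higher by unadjusted p and fold change was 3 (4.67% of all genes tested). It became 0 with all genes above 0 (0.880%) and 0 with a mean of at least 5 FPKM (5.49%). With the replicate number as a block it was 5 (6.29%), and with the block and the GC trend removed 6 (5.65%). The numbers are not known to pair the libraries. Leaving out 1 library gave 0 to 6, the 0 without control replicate 2 and the 6 without control replicate 1. By adjusted p the count was 0 under every alternative except leave-one-out, which gave 0 to 6, the 6 without control replicate 1. Both GLUP libraries lay above both controls for 10 enzymes after centring on medians, PGK1 and LDHA among them. It was 9 after quantile normalization and 8 with the GC trend removed. Centring also moved the median difference over all genes tested from -0.36 to -0.01. The share of all genes was not computed on these scales, so these counts are not read as a result about the enzymes. The difference of PFKP was 0.27 after centring and 0.33 after quantile normalization. With 1 library left out it ranged from -0.18 to 0.042 for PFKP, from -0.16 to 0.89 for PGK1, from -0.085 to 0.71 for PKM and from -0.13 to 1.24 for LDHA, the negative values of the last 3 being those without control replicate 2. The causes were not tested, except that fewer libraries enter each fit with 1 left out. By unadjusted p under 0.05 alone, whatever the fold, 100 values of single enzymes kept their sign and side and 14 came under 0.05. Another 9 went over it, and 7 changed sign. The median difference ranged from 0.22 to 1.89 with 1 library left out. Having 2 libraries in a group and an unknown depth limits all values, and the 2 controls differ more than the groups do for most enzymes.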
